A study of Homo sapiens with 6 samples.

Results

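The 42 genes described here encode the enzymes and regulators of sterol synthesis and of fatty acid metabolism, and they were chosen by name out of 28979 gene IDs in the count files. All 42 were matched by gene symbol to 1 ID each. They fall into a sterol arm of 24 genes, a fatty acid synthesis arm of 12 genes and a fatty acid oxidation arm of 6 genes. Poly-A selected RNA of MDA-MB-231, a mesenchymal line of human breast cancer cells, was sequenced and counted per gene. The 3 libraries labelled Ang were compared with the 3 libraries labelled Con. The series design says that the breast cancer cells took up exosomes, small secreted vesicles, of hypertrophic or of normal cardiomyocytes, and its title names AC16, a human cardiomyocyte line. No label says what Ang and Con stand for, nor gives a dose, a time or a separate culture for any library, so the p-values rest on differences among libraries that may be technical only.

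Cells make cholesterol from acetyl-CoA through the mevalonate pathway, squalene and lanosterol. When sterols in the endoplasmic reticulum run low, SCAP carries the membrane-bound SREBP transcription factors to the Golgi, where they are cut and released to raise transcription of these enzymes, and when sterols are plentiful, INSIG proteins hold SCAP back. Fatty acids are built from the same acetyl-CoA by ACLY, ACACA and FASN, are then activated, desaturated and elongated, and are broken down in mitochondria after CPT1A has attached them to carnitine. Growing cells use both pathways to make membranes.

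Total counts were 3482629 to 3961442 in the Ang libraries and 3369212 to 5437190 in the Con libraries. Levels are given as CPM, counts scaled to the library total after TMM normalisation (trimmed mean of M values), and as CPM per kilobase of merged exons where genes are compared with each other. Con replicate 2 stood apart from the other libraries. Over 250 pairs of a non-coding gene lying under the exons of a coding gene on the other strand, the non-coding gene's counts per base exceeded the coding gene's by a median ratio of 32.9 to 35.4 in the Ang libraries and 39.3, 23.2 and 41.1 in Con replicates 1 to 3. No strand-marking step is named in the labels, and the counter's strand setting was not given. The counts of coding genes are therefore uncertain as measures of their RNA. Of 8 markers of the cell line, 7 were tested, led by VIM at 1032 CPM in Ang and 928 CPM in Con, and SPARC had 2 counts in Ang and 4 in Con. Of 6 epithelial markers 5 were in the files and summed to 15.1 to 20 CPM in Ang and 12.3 to 17.6 CPM in Con. EPCAM had 9.76 CPM in Ang and 9.83 CPM in Con, and ERBB3 had 6.93 CPM in Ang and 4.15 CPM in Con. CDH1 had 10 counts in Ang and 14 in Con. Of 8 cardiomyocyte markers 4 were in the files and summed to 213 to 256 CPM in Ang and 202 to 309 CPM in Con, mostly TTN. NPPA had 8.31 CPM in Ang and 10.7 CPM in Con. NPPB had 5 counts in Ang and 14 in Con, and MYH6 had 0 in Ang and 1 in Con. Of 5 hepatocyte markers 2 were in the files and summed to 51.3 to 62.1 CPM in Ang and 55.4 to 67.3 CPM in Con, nearly all SERPINA1. Of 5 adipocyte markers 2 were in the files, PLIN1 and LEP, and their sum was 0 to 2.31 CPM in Ang and 0 to 0.676 CPM in Con.

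The promoters were searched for the sterol element bound by SREBPs, and for the boxes of NF-Y and Sp1, factors known to act beside SREBPs. RefSeq windows (GRCh38.p14) from 250 bases before to 50 bases after the gene start were found for 39 members and searched on both strands, with matches free to overlap. The NF-Y box CCAAT was present in 15 of 22 sterol promoters (68.2%), in 5 of 11 synthesis promoters (45.5%) and in 0 of 6 oxidation promoters, against 3588 of 9920 promoters of tested genes (36.2%). The Sp1 box GGGCGG was present in 21 of 22 sterol promoters (95.5%) against 69.3% of promoters of tested genes, and the E-box CACGTG in 5 (22.7%) against 10.1%. Shares are descriptions of these windows, and a match is not a binding site. The strict sterol element TCACNCCAC was present in 1 member, SREBF2, and in 1.26% of promoters of tested genes. The windows below show that element with its neighbouring CCAAT box, and the CCAAT boxes of SCD, INSIG1 and MSMO1, which had the highest levels per kilobase. Each is 120 bases on the gene's strand, 5′ to 3′, and capitals mark the sterol element and CCAAT or its reverse complement.
SREBF2 promoter, chr22:41832912-41833031, plus strand: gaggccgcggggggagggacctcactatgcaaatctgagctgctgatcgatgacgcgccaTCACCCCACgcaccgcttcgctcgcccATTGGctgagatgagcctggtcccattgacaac
SCD promoter, chr10:100346983-100347102, plus strand: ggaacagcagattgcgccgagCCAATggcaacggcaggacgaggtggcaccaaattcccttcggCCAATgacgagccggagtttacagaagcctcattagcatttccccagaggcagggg
INSIG1 promoter, chr7:155297648-155297767, plus strand: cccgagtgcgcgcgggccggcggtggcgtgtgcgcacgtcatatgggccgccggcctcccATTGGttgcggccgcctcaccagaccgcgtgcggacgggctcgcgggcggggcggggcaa
MSMO1 promoter, chr4:165327478-165327597, plus strand: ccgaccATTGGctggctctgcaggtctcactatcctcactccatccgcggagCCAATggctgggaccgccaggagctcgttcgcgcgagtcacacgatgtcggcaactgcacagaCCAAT
SREBF2 and SCD both show a CCAAT box within the window and differ in the sterol element, which was found in SREBF2 only among the members.

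Counts were assigned to genes of both pathways, and no member passed the test between the groups. Of the 42 members, 40 passed the filter on low counts, and the 2 that did not were CYP51A1 and TM7SF2. With edgeR's quasi-likelihood fit and p-values adjusted over 14547 genes (Benjamini-Hochberg), the threshold of 0.05 called 0 of the 40 members in Ang against Con, where 0 of 14547 genes (0%) were called in all. At an unadjusted p under 0.05, 0 members were counted by edgeR, by DESeq2 and by limma-voom, where 494 of all genes (3.40%) were counted by edgeR, 411 by DESeq2 and 437 by limma-voom. Log2 fold changes, Ang minus Con, ran from -0.34 to 0.26 over the members, and 17 of 40 (42.5%) were above 0, against 49.2% of all genes. The members' median was -0.03, beside -0.01 over all genes. In bulk RNA, fewer cells of a kind and less RNA per cell cannot be told apart.

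Most members' intervals excluded a 2-fold difference. The 95% confidence interval of the fold, Ang over Con, lay within 2-fold in both directions for 39 of 40 members (97.5%), against 64.2% of all genes. Members were mostly abundant, and the share was 23 of 23 for members of at least 50 CPM, against 99.9% of all genes at that level. PMVK was the exception, at 0.363 to 2.32. Within 1.5-fold in both directions lay 23 members. All 3 Ang libraries were on 1 side of all 3 Con libraries for 2 members (5%), NPC1 and HADHB, against 8.16% of all genes.

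**Figure D1:**
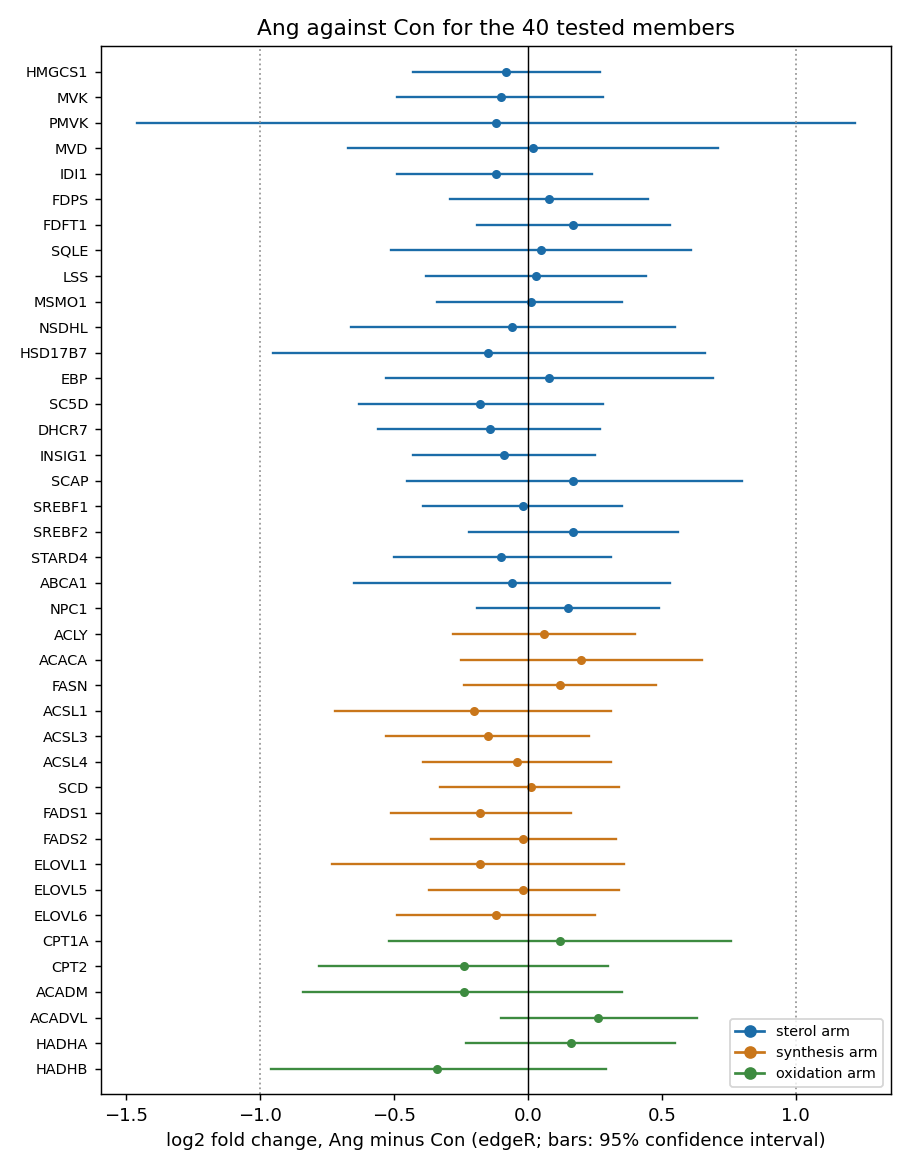
Log2 fold change (Ang minus Con, x axis) of each tested member (y axis), with the 95% confidence interval as a bar and 2-fold limits dotted. Every interval spans 0, and that of PMVK, the least abundant tested member, is the widest.

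In the mevalonate steps, HMGCS1, which makes HMG-CoA from acetyl-CoA, had the highest CPM. It had 125, 117 and 115 CPM in Ang replicates 1 to 3, against 112, 134 and 131 CPM in Con replicates 1 to 3. The Con libraries lay on both sides of the Ang libraries, and the log2 fold change was -0.08 ± 0.18 (SE). IDI1, the isopentenyl diphosphate isomerase gene, had the smallest p of this step group, with 82.2, 77.9 and 66.1 CPM in Ang against 88.3, 90.6 and 66.7 CPM in Con. The groups overlapped (-0.12 ± 0.19, edgeR adjusted p = 0.999). FDPS, the farnesyl diphosphate synthase gene, was steady in Ang at 91.0 ± 10.4 CPM (SD, n = 3) and spread in Con at 85.5 ± 33.8 CPM, with 124 CPM in Con replicate 2 and 62.3 and 69.8 CPM in the other Con libraries. MVK, which phosphorylates mevalonate, averaged 64.1 ± 3.97 CPM in Ang and 68.9 ± 17.1 CPM in Con. The later kinase and decarboxylase were lower. PMVK had 3.25 ± 0.491 CPM in Ang and 3.48 ± 1.11 CPM in Con, and MVD had 12.6 ± 2.43 and 12.3 ± 3.87 CPM. Of 6 members of this group 5 were highest in Con replicate 2, and the sixth, MVK, was lowest there.

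From squalene to cholesterol, MSMO1, the sterol methyl oxidase gene, had the highest CPM of its branch. It had 140, 151 and 114 CPM in Ang against 142, 132 and 128 CPM in Con, and the interval of the fold was 0.790 to 1.28. FDFT1, the squalene synthase gene that commits carbon to sterols, had 93.6, 88.8 and 115 CPM in Ang against 82.4, 111 and 70.1 CPM in Con. Its log2 fold change was 0.17 ± 0.18, and the groups overlapped through Con replicate 2. SQLE, the squalene epoxidase gene, averaged 21.3 ± 2.98 CPM in Ang and 20.6 ± 7.24 CPM in Con. LSS, which closes the rings to lanosterol, had 52.0 ± 3.93 CPM in Ang and 50.4 ± 16.1 CPM in Con. EBP, the sterol isomerase gene, had 18.2, 17.4 and 17.9 CPM in Ang against 8.24, 26.7 and 15.1 CPM in Con, so that the Ang libraries lay between Con libraries.

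Of the remaining enzymes of this branch, DHCR7, the reductase of the last step, had 46.3 ± 2.58 CPM in Ang and 51.1 ± 9.78 CPM in Con. SC5D, the lathosterol desaturase gene, had 36.2 ± 5.45 CPM in Ang and 40.6 ± 8.48 CPM in Con. NSDHL, which works with MSMO1 on the methyl groups of lanosterol, had 16.8 ± 3.70 CPM in Ang and 17.3 ± 3.79 CPM in Con. HSD17B7, the ketoreductase gene of the same steps, had 8.30 ± 1.54 CPM in Ang and 9.12 ± 2.51 CPM in Con. TM7SF2, a sterol reductase gene, had 26 counts over the Ang libraries and 21 over the Con libraries. CYP51A1, the lanosterol demethylase gene, had 5 counts over the Ang libraries and 13 over the Con libraries, with 0 in Con replicate 3, where a count of 0 allows up to 0.944 CPM. A further protein-coding gene on the same strand, ENSG00000285772, covers 79.4% of the exon bases of CYP51A1 in GENCODE 29. That gene is not among the IDs of the count files. The count of CYP51A1 is therefore uncertain as a measure of its level.

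Among the regulators, INSIG1, the sterol-sensing retention protein and itself an SREBP target, had the second highest level per kilobase of all members. It had 278, 278 and 262 CPM in Ang against 304, 301 and 267 CPM in Con, a fold of 0.938 with an interval of 0.743 to 1.19. SREBF2, which encodes the SREBP that favours sterol genes, had 55.5, 64.0 and 77.1 CPM in Ang against 49.4, 75.4 and 48.8 CPM in Con. Its log2 fold change was 0.17 ± 0.20, and Con replicate 2 lay among the Ang libraries. SREBF1, the SREBP gene that favours fatty acid genes, was nearly level, at 75.3 ± 4.09 CPM in Ang and 76.6 ± 4.11 CPM in Con. SCAP averaged 16.9 ± 0.741 CPM in Ang and 15.2 ± 6.32 CPM in Con, with 9.08 CPM in Con replicate 1 and 21.7 CPM in Con replicate 3.

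The transport genes included NPC1, the lysosomal cholesterol exporter, whose groups did not overlap. NPC1 had 174, 166 and 181 CPM in Ang against 161, 163 and 146 CPM in Con. The gap between the lowest Ang and the highest Con library was small, and the fold of 1.11 had an interval of 0.874 to 1.4 (edgeR adjusted p = 0.999). STARD4, a sterol carrier gene, had 51.5 ± 9.12 CPM in Ang and 55.1 ± 5.58 CPM in Con. ABCA1, which exports cholesterol to apolipoproteins, had 12.0, 24.2 and 18.2 CPM in Ang against 17.5, 16.1 and 23.9 CPM in Con, with overlapping groups.

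**Figure D2:**
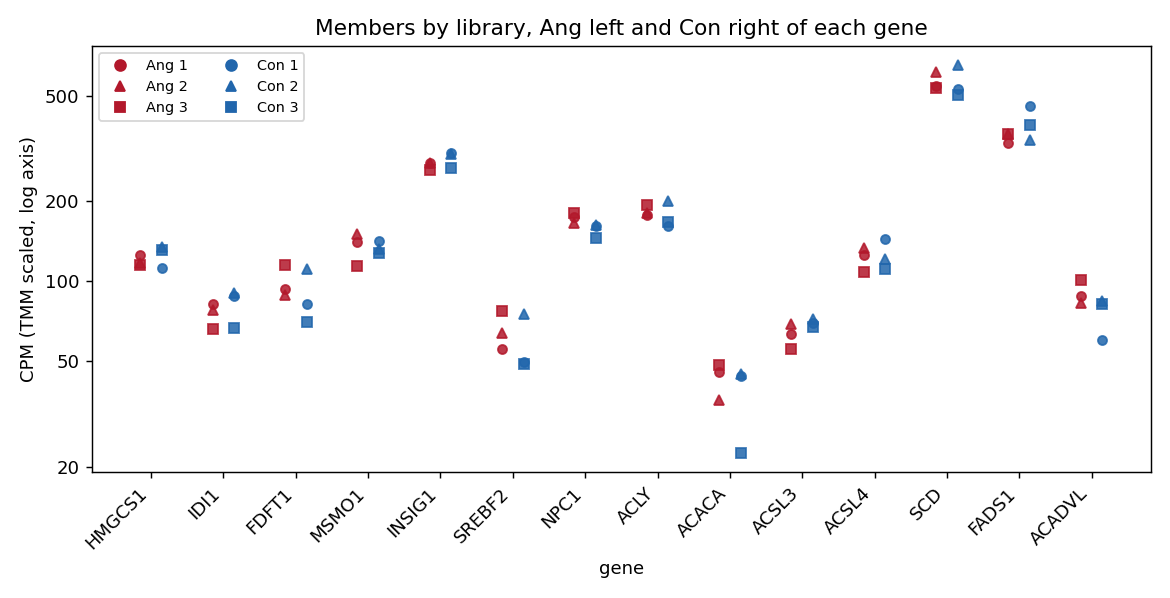
CPM after TMM scaling (log axis) in each of the 6 libraries for the members with the smallest p or the highest CPM of their role, Ang in red to the left and Con in blue to the right of each gene. The groups overlap for every gene shown but NPC1, and ACACA is lowest in Con replicate 3.

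For the genes that build fatty acids, mean values in Ang were above those in Con, and the groups overlapped. ACLY, which makes cytosolic acetyl-CoA from citrate, had 178, 180 and 194 CPM in Ang against 162, 200 and 167 CPM in Con. ACACA, the acetyl-CoA carboxylase gene, had 45.5, 35.8 and 48.2 CPM in Ang against 43.9, 44.8 and 22.6 CPM in Con. The lowest value was that of Con replicate 3, and the log2 fold change was 0.20 ± 0.23. FASN, the fatty acid synthase gene, had 101 ± 11.2 CPM in Ang and 92.9 ± 26.6 CPM in Con, with its highest value, 123 CPM, in Con replicate 2.

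The acyl-CoA synthetase genes ACSL1, ACSL3 and ACSL4, which activate fatty acids, had log2 fold changes below 0 without passing the test. ACSL3 had 63.4, 68.8 and 55.7 CPM in Ang against 69.7, 72.2 and 67.3 CPM in Con (-0.15 ± 0.19). Ang replicate 2 lay within the Con range. ACSL4, which prefers arachidonic acid, had 125, 133 and 108 CPM in Ang against 144, 121 and 111 CPM in Con, and ACSL1 averaged 24.6 ± 3.75 CPM in Ang and 28.1 ± 9.49 CPM in Con. A further gene of the family outside the 42, ACSL5, named after its values were seen, lay the other way, with 49.9, 42.6 and 44.5 CPM in Ang against 41.6, 40.7 and 39.9 CPM in Con (0.16 ± 0.22, edgeR adjusted p = 0.999), and its groups did not overlap.

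SCD, the desaturase gene whose product makes oleic acid from stearic acid, led all members at 105 CPM per kilobase over the 6 libraries, above INSIG1 at 77.1 and MSMO1 at 46.5. It had 543, 614 and 536 CPM in Ang against 532, 651 and 504 CPM in Con, and the interval of the fold was 0.793 to 1.27. FADS1, a front-end desaturase of polyunsaturated fatty acids, had 331, 359 and 359 CPM in Ang against 457, 340 and 387 CPM in Con. Its log2 fold change of -0.18 ± 0.17 had the smallest p of this group, and the groups overlapped through Con replicate 2. FADS2, its neighbour on the other strand of chromosome 11, had 186 ± 12.4 CPM in Ang and 188 ± 12.0 CPM in Con. Exons of FADS1 and FADS2 overlap over 490 bases. Among the elongase genes, ELOVL5 averaged 105 CPM in Ang and 106 CPM in Con. ELOVL6 averaged 75.7 CPM in Ang and 81.9 CPM in Con, and ELOVL1 averaged 20.9 CPM in Ang and 23.6 CPM in Con.

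In the oxidation arm the members pointed both ways. ACADVL, the very long chain acyl-CoA dehydrogenase gene, had the highest CPM of the arm and the smallest unadjusted p of all 40 members. It had 88.3, 83.0 and 101 CPM in Ang against 60.2, 84.0 and 82.4 CPM in Con, a log2 fold change of 0.26 ± 0.19 (edgeR unadjusted p = 0.156, adjusted p = 0.999). The groups overlapped narrowly, and Con replicate 1 was lowest. HADHA, which with HADHB forms the mitochondrial trifunctional protein, averaged 64.8 ± 10.2 CPM in Ang and 57.8 ± 10.2 CPM in Con. HADHB had 11.4, 14.6 and 15.0 CPM in Ang against 17.5, 17.7 and 16.7 CPM in Con, so that all Ang values lay below all Con values. It had 149 counts over the Ang and 241 over the Con libraries, and the fold of 0.791 had an interval of 0.512 to 1.22. The subunit genes thus had fold changes on opposite sides of 1, and their difference was not tested.

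CPT1A, the carnitine palmitoyltransferase gene of the outer membrane, had 15.4 ± 3.18 CPM in Ang and 14.3 ± 4.58 CPM in Con. CPT2, its partner of the inner membrane, had 20.9 ± 0.233 CPM in Ang and 24.6 ± 4.99 CPM in Con. ACADM, the medium chain dehydrogenase gene, had 16.4 ± 3.36 CPM in Ang and 19.4 ± 0.994 CPM in Con.

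SREBF2 and SREBF1 also host the microRNAs miR-33a and miR-33b, which are known to repress ABCA1 and genes of fatty acid oxidation. Because the series design aims at microRNA targets, their seed matches in the members are shown. The mature sequences (RefSeq, GRCh38.p14) are given 5′ to 3′ with the seed, bases 2 to 8, in capitals.
miR-33a-5p, in SREBF2, chr22:41900949-41900969, plus strand: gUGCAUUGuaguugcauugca
miR-33b-5p, in SREBF1, chr17:17813897-17813916, minus strand: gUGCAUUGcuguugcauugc
Both share 1 seed. In the longest GENCODE 29 3′ untranslated region of each gene, 5 of 42 members (11.9%) held a match to it, against 1048 of 11072 tested genes (9.47%). Counted without overlap, ABCA1 held 3 matches and CPT1A, HADHB, LSS and SCAP held 1 each. Sites in the transport and oxidation genes are shown with the seed match in capitals. In ABCA1 a further match overlaps the end of site 1, and it stands in lower case among the bases before site 2.
ABCA1, site 1: gtactgatactattCAATGCAa
ABCA1, site 2: aatgcaatgcaattCAATGCAa
ABCA1, site 3: ttttttaattgcaaCAATGCAa
CPT1A: atcagtgcagttatCAATGCAa
HADHB: aggcaatgccatttCAATGCAt
Of the 5 genes with a match, HADHB alone had all Ang values below all Con values (edgeR unadjusted p = 0.289). The same held for 661 of all 14547 tested genes. Whether the sites bear on these values was not tested. The log2 fold changes were -0.06 ± 0.30 for ABCA1, 0.12 ± 0.33 for CPT1A, -0.34 ± 0.32 for HADHB, 0.03 ± 0.21 for LSS and 0.17 ± 0.32 for SCAP. Mature microRNAs were not analysed here.

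Seen as arms, the sterol and synthesis genes had values in the Ang libraries within the range of the Con libraries. The median log2 fold change was -0.04 over 22 tested sterol genes, -0.03 over 12 synthesis genes and -0.06 over 6 oxidation genes, beside -0.01 over all genes. The sterol arm took 0.144%, 0.147% and 0.142% of the counts of Ang replicates 1 to 3, against 0.142%, 0.177% and 0.129% in Con replicates 1 to 3. The synthesis arm took 0.176%, 0.192% and 0.174% in Ang, against 0.190%, 0.219% and 0.162% in Con. In both arms the Ang libraries lay close together between Con replicate 3, the lowest, and Con replicate 2, the highest. The oxidation arm took 0.0201% to 0.0228% in Ang and 0.0191% to 0.0242% in Con.

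**Figure D3:**
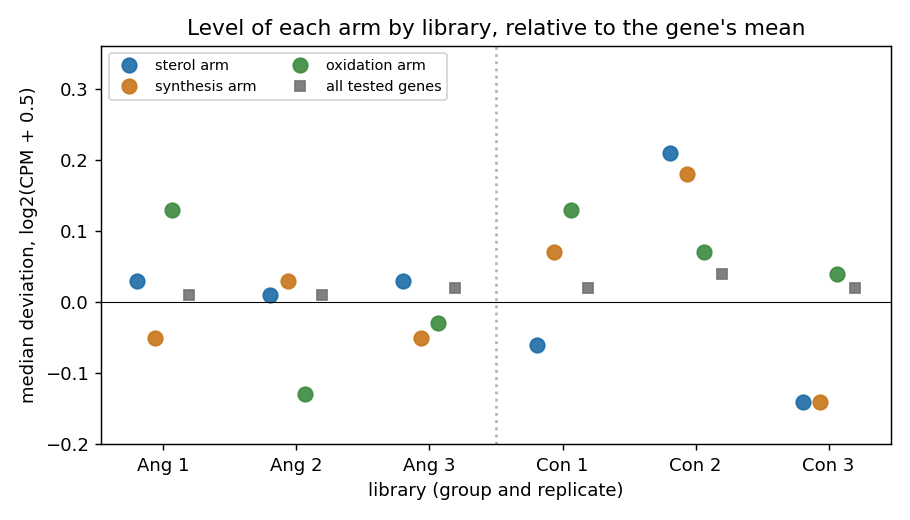
Median over the tested members of each arm of the deviation of log2(CPM + 0.5) from the gene's mean over 6 libraries (y axis), by library (x axis), with all tested genes as grey squares. The sterol and synthesis arms are highest in Con replicate 2 and lowest in Con replicate 3, at equal height there, and near 0 in the Ang libraries.

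Con replicate 2 stood above the other libraries in the sterol and synthesis arms. Relative to each gene's mean over the 6 libraries, on the scale of log2(CPM + 0.5), the sterol arm lay at 0.03, 0.01 and 0.03 in Ang replicates 1 to 3, against -0.06, 0.21 and -0.14 in Con replicates 1 to 3. The oxidation arm lay at 0.13, -0.13 and -0.03 in Ang, against 0.13, 0.07 and 0.04 in Con, so that its Con libraries were close together and its Ang libraries spread. All tested genes lay at 0.01 to 0.02 in Ang and 0.02 to 0.04 in Con. Con replicate 2 was the highest of the 6 libraries for 17 of 40 members (42.5%), against 19.9% of all genes, and the lowest for 1 member (2.5%), against 19.6%. Among members of at least 50 CPM it was the highest for 9 of 23 (39.1%), against 18.3% of all genes at that level. The members are all protein-coding, whereas all genes include non-coding ones, and the share among coding genes alone was not computed. In Con replicate 2 the 24 tested members without opposite-strand exons lay at 0.20 on that log2 scale, and the 16 with such exons at 0.13. The strand ratio was also lowest in Con replicate 2, and its part in these values was not tested.

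Without Con replicate 2, 40 of 14867 genes (0.269%) were called, and 0 members were among them. At an unadjusted p under 0.05 the same fit counted 6 of 40 members (15.0%), against 11.0% of all genes. They were FDPS at 0.47 ± 0.17, SREBF2 at 0.42 ± 0.19, FASN at 0.38 ± 0.16, FDFT1 at 0.37 ± 0.16 and ACADVL at 0.36 ± 0.17 on the log2 scale, and FADS1 at -0.27 ± 0.11. Their edgeR adjusted p-values lay between 0.220 for FDPS and 0.399 for ACADVL. EBP had the largest value, 0.64 ± 0.35. The log2 fold change of FDPS was 0.08 ± 0.19 with all libraries. Without that library the median log2 fold change was 0.02 over the 40 members, 0.02 over the sterol arm, 0.01 over the synthesis arm and -0.06 over the oxidation arm. Within the synthesis arm it was 0.35 over ACLY, ACACA and FASN, -0.07 over the activation genes and -0.04 over the desaturation and elongation genes.

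**Figure D4:**
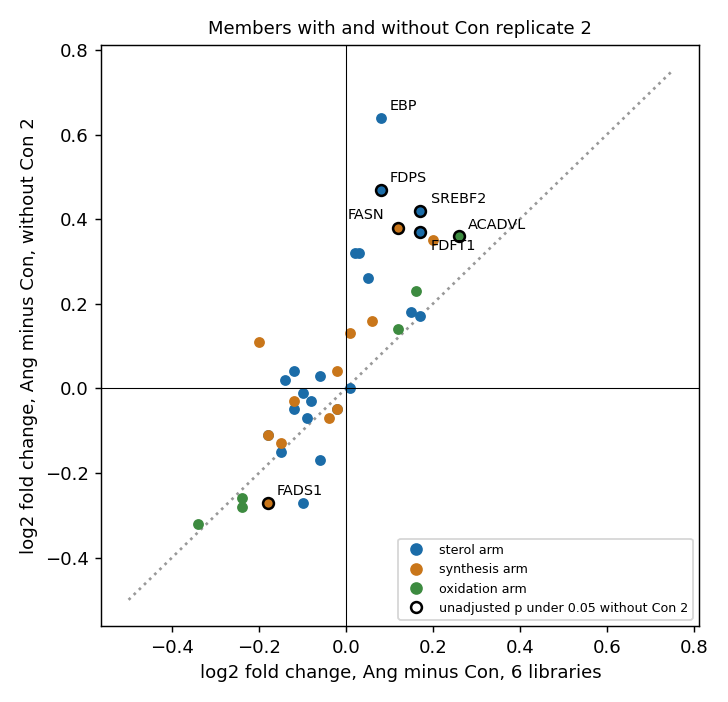
Log2 fold change (Ang minus Con) of each tested member from all 6 libraries (x axis) and without Con replicate 2 (y axis), with the line of equality dotted and a black ring for an unadjusted p under 0.05 without that library. The ringed genes FDPS, SREBF2, FASN, FDFT1 and ACADVL lie between 0.36 and 0.47 on the y axis, and FADS1 lies at -0.27.

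For several members, far more counts were assigned to a non-coding gene on the other strand than to the member. Of the 42 members, 17 share exon bases with a gene on the other strand, none over more than 20% of their exons. For 11 members the other gene is non-coding, 12 genes in all, and 10 of these 12 had more counts per base than the member. RUSC1-AS1 lies opposite FDPS over 693 bases and had 35501 counts over the 6 libraries, against 2237 for FDPS, a ratio per base of 16.8. ENSG00000261604, opposite HMGCS1 over 703 bases, had 15762 counts against 3031 for HMGCS1, and IDI2-AS1, opposite IDI1, had 8279 against 1984. ENSG00000274630, whose 156 exon bases lie wholly opposite ACLY, had 10865 counts against 4469 for ACLY, 81.3 times as many per base. The ratio was 44.3 for ENSG00000236723 opposite CPT2, 7.57 for STARD4-AS1 and 4.52 for SREBF2-AS1. These counts and ratios are over all exons of each gene, not over the shared bases alone. The shared bases made up 93.8% of the exon bases of ENSG00000236723, 50.4% of IDI2-AS1 and 28.2% of ENSG00000261604. They made up 19.7% of RUSC1-AS1, 9.37% of SREBF2-AS1 and 2.2% of STARD4-AS1.

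**Figure D5:**
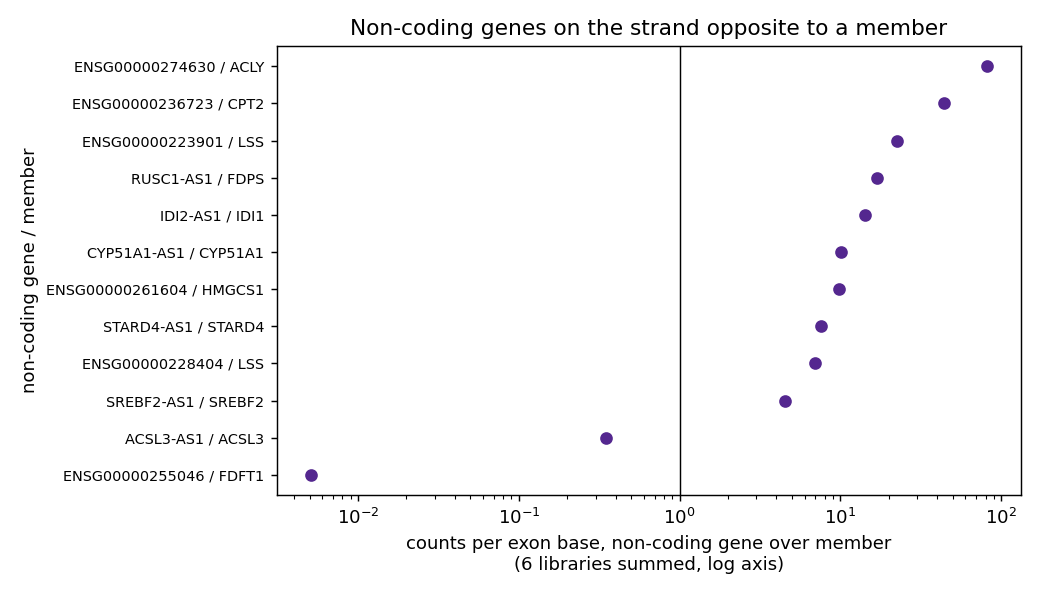
Ratio of counts per exon base (log axis), non-coding gene over the member on the other strand, for the 12 pairs. Counts are summed over the 6 libraries and over all exons of each gene. The 10 ratios to the right of 1 run from 4.52 to 81.3, and those of ACSL3-AS1 and of the gene opposite FDFT1 lie below 1.

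None of the tested non-coding genes passed the threshold between the groups either. RUSC1-AS1 had 1522, 1417 and 1510 CPM in Ang against 1515, 1190 and 1653 CPM in Con, a log2 fold change of 0.03 ± 0.18. The gene opposite HMGCS1 had 655, 581 and 631 CPM in Ang against 756, 510 and 769 CPM in Con (-0.12 ± 0.17). The gene opposite ACLY had 447, 442 and 446 CPM in Ang against 474, 336 and 570 CPM in Con. In each of them Con replicate 2 was the lowest library, where FDPS, HMGCS1 and ACLY were highest. Over the 10 non-coding genes with more counts per base, 8 were lowest in Con replicate 2, and 5 of the 9 members opposite them were highest there. The 10 tested non-coding genes had log2 fold changes from -0.30 to 0.27, and edgeR counted 0 at an unadjusted p under 0.05. Counts were thus very unequal between the strands, and which strand the counter read was not given. Whether the counts of such a pair belong to the gene they were assigned to or to the gene opposite it was not tested, for the members as for the non-coding genes.

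Further genes of the pathways, from lists that do not cover every known member, showed no call either. Of 16 further sterol genes, 15 were tested, 7 with a log2 fold change above 0 and a median of -0.01. STARD3, a late endosomal cholesterol transfer gene, had 19.8 CPM in Ang and 14 CPM in Con (0.50 ± 0.31), and GGPS1, the geranylgeranyl diphosphate synthase gene, had 5.96 CPM in Ang and 9.36 CPM in Con (-0.65 ± 0.44). The groups overlapped for STARD3 but not for GGPS1, which had 64 counts over the Ang and 130 over the Con libraries. Groups did not overlap for 8.16% of all genes. ABCG1, a sterol exporter gene named after its counts were seen, did not pass the filter, with 7, 0 and 4 counts in Ang replicates 1 to 3 and 0 counts in each Con library. Of 15 further fatty acid synthesis genes, 13 were tested and 8 were above 0, with a median of 0.13. ELOVL7, an elongase gene, had 14.7 CPM in Ang and 8.37 CPM in Con (0.79 ± 0.37, edgeR unadjusted p = 0.0316, adjusted p = 0.999), and OXSM, of mitochondrial fatty acid synthesis, had 24.2 CPM in Ang and 29.3 CPM in Con. Of 18 further oxidation genes, 17 were tested and 9 were above 0, with a median of 0.01. DECR1, which handles double bonds of unsaturated fatty acids, had 12.7 CPM in Ang and 19.0 CPM in Con (-0.59 ± 0.32). HADH, the short chain hydroxyacyl-CoA dehydrogenase gene, had 24.4 CPM in Ang and 18.5 CPM in Con (0.41 ± 0.28). The groups overlapped for ELOVL7, OXSM, DECR1 and HADH.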

How the data were processed

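Per the labels, poly-T beads captured messenger RNA and random oligonucleotides primed it, and the authors deposited raw read counts per Ensembl gene ID, 1 file per library. The submitters' processing notes name HTSeq 0.9.1, DESeq 1.39.0 and build GRCh38. Which aligner, annotation release and strand setting were used is not given in the sources used here. Symbols were matched for 28918 IDs, and GENCODE 29 (GRCh38) gave exons for 28192. Counts were filtered by filterByExpr, TMM scaled and tested with the robust quasi-likelihood test of edgeR 4.0.16 in R 4.3.3. The SE was derived as the size of the log2 fold change over the square root of that test's F statistic. Intervals are at the 95% level, from that SE and the t distribution. A count of 0 allows 3 counts, for counting error only. DESeq2 1.42.0 and limma 3.58.1 were alternatives. No pair of libraries of the same group was identical, and the chi-square per gene within groups was 3.60 to 12.8.

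Members and lists were chosen with earlier results of these data known. Values in every library are given for the member of smallest unadjusted p and of highest CPM in each of 8 roles, and the 2 genes of smallest p of each further list are named. Further values by library were added where the spread of the Con libraries, the gene's role or its microRNA site called for them. The further lists are partial. Strand pairs needed at least 90% of the non-coding gene's exon bases under 1 coding gene of at least 300 counts, with 0.5 added to each count.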

Additional observations from a re-analysis of the deposited data

How the results depend on the processing

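The 0 called members stayed 0 under every alternative run: relative log expression scaling, no low-count filter, at least 1 CPM in 3 libraries, DESeq2, limma-voom, a replicate block, each library left out, genes without opposite-strand exons alone, and a term for the strand ratio. Over all genes the count was 0 in these settings but for 4 with the strand ratio term and 0 to 40 when 1 library was left out, namely 1 without Con replicate 1 and 40 when Con replicate 2 was absent, and the cause was not tested. At an unadjusted p under 0.05, 6 of 40 members were counted without Con replicate 2, against 1633 of 14867 genes (11.0%). With the strand ratio term 1 of 40 members was counted, against 946 of 14547 genes. As for the replicate block, same-numbered libraries correlated in their deviations at 0.037, 0.068 and 0.036, under the 0.1 taken to show pairing, and the block called 0 genes. Leaving out 1 library moved the median log2 fold change of the sterol arm between -0.089 and 0.025. The range was -0.106 to 0.027 for the synthesis arm and -0.146 to 0.001 for the oxidation arm. For the 14 members with the smallest p or highest CPM of their role, 173 of 187 alternative values kept their direction without a call, and 14 changed sign without a call, among MSMO1, ACLY, ACACA, ACSL4 and SCD. At these depths the interval of PMVK was wider than 2-fold, and TM7SF2 and CYP51A1 did not pass the filter.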
